A study of Mus musculus with 4 samples.

Results

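The genes described here are 8 members of the cell death machinery, picked by symbol as possible signs of cell death in the *rd7* retina at 3 weeks of age: the caspases *Casp1*, *Casp8* and *Casp9* and the BCL2 family genes *Bax*, *Bak1*, *Bcl2*, *Bcl2l1* and *Bcl2l11*. All 8 were found among the 22095 loci of the deposited table. None of the 3 caspases is an executioner of apoptosis. *Casp8* and *Casp9* start the cascade and *Casp1* is an inflammatory caspase. RNA-seq libraries had been made from whole retinas of Nr2e3 mutant (*rd7*) mice and of wild-type (WT) mice, 2 libraries of each, and both genotypes are labelled with the strain C57BL/6J. Each library pooled 8 retinas of 2 females and 2 males aged 3 weeks, and no other allele or treatment is given. The mutation is in the germ line, so every cell of the animal carries it. Values are FPKM, that is, fragments counted per kilobase of transcript and per library size.

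Apoptosis has 2 main routes. In the mitochondrial route, BAX and BAK1 open the outer membrane of mitochondria, BCL2 and BCL-XL (encoded by *Bcl2l1*) hold them back, and BH3-only proteins such as BIM (*Bcl2l11*) relieve that restraint. Cytochrome c then leaves the mitochondria and activates caspase-9 on the APAF1 apoptosome. In the other route, death receptors such as FAS recruit and activate caspase-8. Both routes converge on the executioner caspases. Caspase-1 belongs to inflammasomes, where it matures interleukin-1β and interleukin-18. Photoreceptors die in many inherited retinal diseases, and these proteins are controlled to a large part after transcription, by cleavage, release and binding, which transcript levels do not show.

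The part of each protein that does this work can be read in the coding bases. For the 3 caspases, 45 bases around the catalytic cysteine are shown, with the cysteine codon in capitals, because this codon marks each of them as a protease. The bases were read 5′ to 3′ on the coding strand from GENCODE vM1 transcripts on mm9, and all of them matched the genome sequence. The stretch of *Casp1* starts in exon 6 and crosses into the next exon (plus strand, chr9:5303744-5304200 with the intron). That of *Casp8* lies in exon 8 (plus strand, chr1:58901442-58901486). That of *Casp9* also crosses out of exon 6 (plus strand, chr4:141363147-141367467 with the intron).
Casp1: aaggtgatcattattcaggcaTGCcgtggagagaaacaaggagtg
Casp8: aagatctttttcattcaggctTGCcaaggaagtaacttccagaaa
Casp9: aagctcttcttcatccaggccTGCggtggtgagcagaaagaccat

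For the 5 BCL2 family genes the bases around the BH3 core are shown, the helix through which members bind each other, with the codons of its conserved leucine, glycine and aspartate in capitals. The stretch lies in exon 3 of *Bax* (minus strand, chr7:52721364-52721408), exon 4 of *Bak1* (minus strand, chr17:27159473-27159517), exon 1 of *Bcl2* (minus strand, chr1:108609149-108609193), exon 2 of *Bcl2l1* (minus strand, chr2:152655430-152655474) and exon 3 of *Bcl2l11* (plus strand, chr2:127972871-127972915).
Bax: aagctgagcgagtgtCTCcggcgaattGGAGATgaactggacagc
Bak1: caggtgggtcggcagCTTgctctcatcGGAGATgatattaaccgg
Bcl2: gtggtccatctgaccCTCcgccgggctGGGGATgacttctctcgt
Bcl2l1: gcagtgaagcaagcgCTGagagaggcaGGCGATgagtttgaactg
Bcl2l11: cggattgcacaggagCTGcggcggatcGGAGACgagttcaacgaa

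The core was found once in each of the 5 coding sequences, in the activators of death and in their inhibitors alike. Between pairs of caspases 23 to 28 of the 45 bases were identical, and between pairs of BCL2 family genes 17 to 25. The reads were 50 bases long, so in the stretches shown the members differed within the span of a read. Other stretches and other genes were not compared. The FPKM are per gene. Where a gene is spliced into proteins with opposed effects, as *Bcl2l1* is, the value does not separate them.

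Estimated depths of the 4 libraries ran from 34.9 to 35.6 (reads in units of 1e6), inferred from the lowest values of genes with a single transcript. They add up to less than the total of mapped reads that the authors report, and the estimated reads per gene rest on them. The window of values used holds these estimates close together, so they do not show that the libraries were alike in depth. *Nr2e3* had 2493 and 1589 FPKM in the *rd7* libraries and 385 and 394 FPKM in the wild-type libraries and was thus higher in both mutant pools. The labels give no direction for its level, and a value per gene does not show whether the transcript is intact, so this does not check them. Differences were tested with limma on log2(FPKM + 0.1), 2 against 2 libraries, with a call at an FDR (false discovery rate) of 5% over the 12655 genes with a mean of at least 1 FPKM. In all, 46.4% of those genes were called, 37.6% higher and 8.80% lower in *rd7*, and their median log2 fold change was 0.15. With libraries scaled by median ratios this shift vanishes, and 19.7% were called higher and 19.6% lower. Fewer cells of a type and less RNA per cell cannot be told apart in whole retinas.

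Retinal markers were abundant in all 4 libraries. Their lists moved as follows, beside the 37.6% and 8.80% of all genes called higher and lower. Rod genes with a successful estimate in all 4 libraries summed to between 7716 and 8428 FPKM in *rd7* and between 10550 and 10760 in wild-type, with 3 of 6 tested lower. Cone genes summed to between 3772 and 3992 against between 1226 and 1267, with 6 of 8 higher. Genes of Müller glia (4 of 8 higher), bipolar cells (5 of 7), ganglion and amacrine cells (2 of 7), endothelium and pericytes (2 of 6) and pigment epithelium (3 of 5) had 0 called lower. Their summed FPKM ranged in that order from 2028 to 2089, 607 to 758, 588 to 635, 54.7 to 77.5 and 58.9 to 63.1 in *rd7*, and from 1858 to 1925, 511 to 545, 566 to 582, 39.8 to 43.7 and 23.7 to 37.6 in wild-type. Blood genes were lower at 3 of 5 loci tested (76.7 to 161 against 271 to 317 FPKM), and lens genes were not called at 5 of 5 (19.4 to 43.5 against 34.8 to 80.8), though 5 of 5 were called lower with a replicate block and without *rd7* replicate 2. Microglia genes summed to 27.4 and 35.5 FPKM in *rd7* and to 23.7 in each wild-type library, with 3 of 8 higher. More of them were called without *rd7* replicate 1 and fewer without wild-type replicate 1, as over all genes tested. Without wild-type replicate 1, calls were also fewer for rods, blood, endothelium, Müller glia, bipolar cells, and ganglion and amacrine cells. Without *rd7* replicate 2, calls were more for Müller glia, bipolar cells and endothelium, and over all genes tested. Most cone genes stayed higher in each fit. T cell genes (0.564 to 0.600 against 0.786 to 1.02, with *Cd3e* at 0 in all 4 libraries) and neutrophil genes (0.224 to 0.324 against 0.146 to 0.251) were too low to test. The part of these differences in the results that follow was not tested.

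The 8 genes spanned a wide range of levels. By mean FPKM over the 4 libraries, which is a level per length, the order was *Bax* (27.2), *Bcl2l1* (22.5), *Casp9* (9.52), *Bak1* (6.08), *Bcl2l11* (3.10), *Bcl2* (1.55), *Casp8* (0.502) and *Casp1* (0.0830). No neighbours in this order overlapped in their ranges over the 4 libraries. *Bax* stood at percentile 88.1 of all loci with a successful estimate and *Casp1* at percentile 27.0. Of the 8 genes, 6 passed the filter on low values, and of these *Casp9* was called higher and *Bcl2* lower, which is 1 of 6 in each direction beside the 37.6% and 8.80% of all genes. The median log2 fold change of the 6 was -0.04, beside 0.15 for all genes tested. Summed over the 8 genes, the libraries held 72.7 and 68.9 FPKM in *rd7* and 71.3 and 69.3 FPKM in wild-type.

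**Figure D1:**
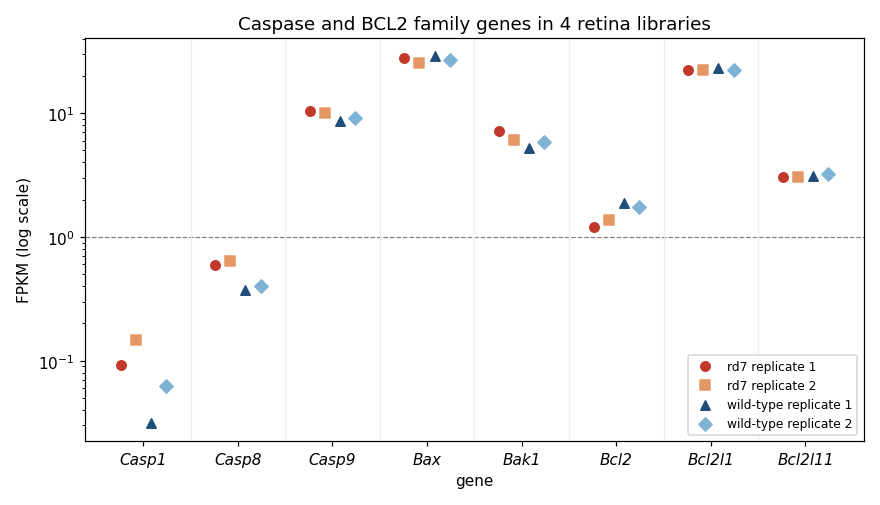
FPKM on a log scale (vertical axis) of the 8 caspase and BCL2 family genes (horizontal axis), with 1 point for each of the 2 *rd7* and 2 wild-type libraries and the filter at 1 FPKM as a dashed line. *Bax* and *Bcl2l1* sit above 20 FPKM in every library with the genotypes mixed, *Bcl2* is lower in both *rd7* libraries, and *Casp1* and *Casp8* lie under the filter with both *rd7* points above both wild-type points.

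*Casp9*, the initiator caspase of the mitochondrial route, lies on chromosome 4 of mm9 from 141349527 to 141371890. It had 10.4 and 10.1 FPKM in the *rd7* libraries and 8.57 and 9.06 FPKM in the wild-type libraries. Both *rd7* values lay above both wild-type values, as they did in 57.1% of all genes tested. The means were 10.2 ± 0.233 (SD, n = 2) and 8.81 ± 0.343 FPKM (SD, n = 2), a log2 fold change of 0.21 (95% confidence interval 0.06 to 0.36, adjusted p = 0.0357 from limma). Relative to the median of all genes the difference was 0.07, and with median-ratio scaling it was 0.06 and not called (adjusted p = 0.443 from limma). The call was also lost with a replicate block (0.21, adjusted p = 0.0532 from limma) and without *rd7* replicate 1, wild-type replicate 1 or wild-type replicate 2 (0.19, 0.17 and 0.25). An estimated 1579 to 1908 reads lay behind each value. The locus overlaps *Cela2a*, which did not exceed 0.0935 FPKM in any library.

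*Casp8*, the initiator caspase of the death receptor route, lies on chromosome 1 from 58852218 to 58904347. Its level was 0.594 and 0.638 FPKM in *rd7* and 0.372 and 0.403 FPKM in wild-type retinas. The *rd7* values lay above the wild-type values without overlap, as in 57.1% of all genes tested. That share leaves out loci under 1 FPKM. The *Casp8* values rest on an estimated 58 and 62 reads in *rd7* and on 37 and 40 reads in wild-type libraries. With a mean of 0.502 FPKM the gene was left out of the test. In the alternative fit without a filter its log2 fold change was 0.55 with an adjusted p of 0.0513 from limma, on the other side of the threshold from a call. Among loci under 1 FPKM, that fit called 4.08% higher and 2.30% lower.

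*Casp1* lies on chromosome 9 from 5298517 to 5307281 and was barely detected. It had 0.0918 and 0.146 FPKM in *rd7* and 0.0316 and 0.0628 FPKM in wild-type libraries, from an estimated 5 and 8 against 2 and 3 reads. Both *rd7* values were above both wild-type values, as in 57.1% of all genes tested, which leave out loci this low. The ratio of the summed reads (13 against 5) was 2.63, with an exact 95% interval of 0.88 to 9.41 that covers counting error only. The FPKM were 2.90, 4.61, 1.00 and 1.99 times the lowest of the 4, and if that lowest value is 1 read, a reading added after the values were seen, the reads were 3 and 5 against 1 and 2 and the ratio 2.70 with an interval of 0.65 to 15.8. A difference was not detectable at this depth (adjusted p = 0.113 from limma without a filter). Microglia, the resident macrophages of the retina, had a higher summed marker level in both *rd7* libraries (27.4 and 35.5 against 23.7 FPKM in each wild-type library), and their part in the *Casp1* and *Casp8* values was not tested.

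*Bax* and *Bak1* encode the pore-forming effectors. *Bax*, on chromosome 7 from 52717065 to 52722268, had 28.1 and 25.3 FPKM in *rd7* and 28.8 and 26.8 FPKM in wild-type libraries. The genotypes overlapped, and the spread within each was larger than the difference between them. The log2 fold change was -0.06 with a 95% confidence interval from -0.24 to 0.12 (adjusted p = 0.519 from limma), and the sign turned after correction for GC content and gene length (0.04) and without *rd7* replicate 2 (0.01).
*Bak1*, on chromosome 17 from 27156757 to 27165571, was lower than *Bax* in every library, with 7.21 and 6.04 FPKM in *rd7* and 5.27 and 5.79 FPKM in wild-type libraries. Both *rd7* libraries were above both wild-type libraries, as in 57.1% of all genes tested, yet *rd7* replicate 2 lay close to wild-type replicate 2. The log2 fold change was 0.25 with an interval from -0.01 to 0.51 (adjusted p = 0.0988 from limma). Leaving out *rd7* replicate 2 raised it to 0.38 and gave a call (adjusted p = 0.00654 from limma), so whether *Bak1* was called rested on that library. *Bax* exceeded *Bak1* by a ratio of 3.89 and 4.18 in *rd7* and of 5.47 and 4.62 in wild-type libraries.

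*Bcl2* and *Bcl2l1* encode the pro-survival proteins, and they differed in level. Their fold changes were not tested against each other. *Bcl2*, on chromosome 1 from 108434756 to 108610867, was low, with 1.20 and 1.38 FPKM in *rd7* and 1.87 and 1.75 FPKM in wild-type libraries. Both *rd7* values were below both wild-type values, which held for 19.5% of all genes tested. The mean was 1.29 ± 0.128 FPKM (SD, n = 2) against 1.81 ± 0.0801 FPKM (SD, n = 2), a log2 fold change of -0.46 (95% confidence interval -0.81 to -0.12, adjusted p = 0.0406 from limma). An estimated 304 and 347 reads against 476 and 449 lay behind these values. The difference was larger with median-ratio scaling (-0.61) and after correction for GC content and gene length (-0.76). It was smaller with 1 in place of 0.1 added to the FPKM (-0.30), and was still called there. The call was lost with a replicate block (adjusted p = 0.0684 from limma), without a filter on low values (0.0697), and without *rd7* replicate 1, wild-type replicate 1 or wild-type replicate 2 (log2 fold changes of -0.37, -0.42 and -0.51).
*Bcl2l1*, on chromosome 2 from 152606404 to 152657418, was the main pro-survival transcript among the 8 genes, at 22.2 and 22.3 FPKM in *rd7* and 23.3 and 22.2 FPKM in wild-type libraries. The values overlapped, and the log2 fold change of -0.03 had the narrowest interval of the 6 tested genes, from -0.16 to 0.10 (adjusted p = 0.630 from limma). Only with median-ratio scaling was *Bcl2l1* called, as lower (-0.19, adjusted p = 0.0416 from limma). *Bcl2l1* exceeded *Bcl2* 18.5-fold and 16.2-fold in the *rd7* libraries and 12.5-fold and 12.7-fold in the wild-type libraries. *Bcl2* therefore made up 5.13% and 5.82% of the summed FPKM of *Bcl2* and *Bcl2l1* in *rd7*, compared with 7.42% and 7.32% in wild-type libraries.

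*Bcl2l11*, which encodes the BH3-only protein BIM, lies on chromosome 2 from 127951774 to 127988283. Its level was 3.03 and 3.05 FPKM in *rd7* and 3.09 and 3.25 FPKM in wild-type libraries. The *rd7* values were the lower ones, as in 19.5% of all genes tested, but the nearest libraries of the genotypes were almost level. The log2 fold change was -0.06 with an interval from -0.27 to 0.16 (adjusted p = 0.625 from limma). After correction for GC content and gene length it was -0.34 and was called lower (adjusted p = 0.0321 from limma).

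Opening of the mitochondrial membrane depends on the balance between effectors and inhibitors. The summed FPKM of *Bax* and *Bak1* was 35.3 and 31.3 in *rd7* and 34.1 and 32.5 in wild-type libraries, and that of *Bcl2* and *Bcl2l1* was 23.4 and 23.7 against 25.2 and 24.0. The ratio of the first sum to the second was 1.51 and 1.32 in *rd7* and 1.35 and 1.36 in wild-type libraries. Both wild-type ratios lay between those of the *rd7* libraries, so the pools of mutant animals differed more from each other than either did from a wild-type library. This rests on which inhibitors are counted. With the more abundant pro-survival genes *Mcl1* and *Bcl2l2* added, a choice made after the values were seen, the inhibitors summed to 106.7 and 115.2 FPKM against 94.3 and 95.8, and the ratio was 0.330 and 0.272 in *rd7* and 0.361 and 0.340 in wild-type libraries. Both *rd7* ratios then lay below both wild-type ratios. Neither ratio was tested.

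The tested genes whose pattern over the 4 libraries was nearest to that of *Bcl2*, the called member with the largest change, were *Ribc1*, *5730469M10Rik* and *1810043H04Rik*. Likeness was measured as the Euclidean distance between log2(FPKM + 0.1) values centred on each gene's mean, which was 0.00748, 0.0249 and 0.0251 for these genes and had a median of 0.655 over all genes tested. Their log2 fold changes were -0.46, -0.48 and -0.44, and *Ribc1* was not itself called (adjusted p = 0.0516 from limma). With 4 libraries, such a likeness mostly reflects the difference between genotypes.

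**Figure D2:**
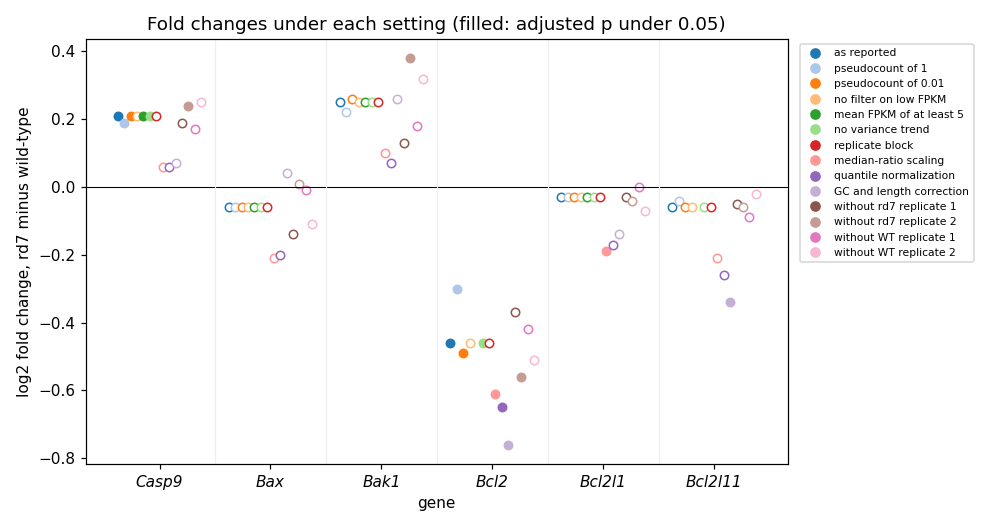
Log2 fold change of *rd7* against wild-type retinas (vertical axis) for the 6 tested members (horizontal axis), with 1 point for each way of processing and filled points where the adjusted p of limma was under 0.05. *Bax* moves between -0.21 and 0.04, *Bcl2l1* is filled only with median-ratio scaling (-0.19), *Casp9* falls from 0.21 to 0.06 with scaling of the libraries, and *Bcl2* is below 0 in each setting that could fit it.

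The 8 genes were set against 73 further genes of the same pathways, in 8 lists. Of these, 72 were listed and 48 tested. Of the 48, 21 were called higher and 5 lower in *rd7*, beside 37.6% and 8.80% of all genes. The same shares apply to the counts by list below. The median log2 fold change of the 48 was 0.17, beside 0.15 for all genes. With median-ratio scaling 7 were higher and 8 lower, beside 19.7% and 19.6% of all genes. After correction for GC content and gene length 7 were higher and 10 lower, beside 1523 and 1837 of 12258 genes. In each fit without a wild-type library, which leaves that genotype without a replicate, most calls of the pathway genes were lost. Most calls over all genes tested were lost in those fits too. Calls that held under all 10 fits of the 4 libraries and under each fit that left out a library included those of *Cflar*, *Bmf* and *Cdkn1a*, all higher.

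Among the other caspases, *Casp2*, whose protein is linked to the response to DNA damage, rose by 0.31 on the log2 scale, a call that was lost with each scaling of the libraries and turned to -0.01 after correction for GC content and gene length. *Casp6* (2.66 and 2.18 against 2.52 and 2.69 FPKM) was not called. *Casp14*, a caspase of the skin, was at 0 in all 4 libraries.

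In the BCL2 family beyond the 8 genes, the pro-survival *Mcl1* (29.9 and 30.4 against 22.8 and 24.1 FPKM) and *Bcl2l2* (53.5 and 61.1 against 46.4 and 47.8 FPKM) were both called higher, by 0.36 and 0.28 on the log2 scale. *Bcl2l2* thus stood at a higher FPKM than *Bcl2l1* in every library. With median-ratio scaling the difference was 0.21 for *Mcl1*, still called, and 0.12 for *Bcl2l2*, no longer called. After correction for GC content and gene length both were 0.15 and neither was called (adjusted p = 0.0732 and 0.1995 from limma), and neither was called without wild-type replicate 1 (0.0613 and 0.163). Of the BH3-only and effector-type genes, 3 of 5 tested were higher and 0 lower, and with median-ratio scaling 1 was higher and 1 lower. *Bmf*, a BH3-only gene that is tied to loss of cell attachment, rose most, from 5.14 and 5.36 FPKM in wild-type to 10.1 and 8.73 FPKM in *rd7* (log2 fold change 0.83, adjusted p = 0.00195 from limma). *Bid*, which links caspase-8 to the mitochondria (0.47), and *Bok* (0.30) lost their calls with median-ratio scaling. After correction for GC content and gene length *Bok* was called (0.39, adjusted p = 0.0209 from limma) and *Bid* was not (0.28).

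On the apoptosome and its inhibitors, 3 of 9 genes were higher and 1 lower. The higher genes were the inhibitor of caspases *Xiap* (74.1 and 84.2 against 59.1 and 61.5 FPKM, log2 fold change 0.39), *Birc2* (0.22) and *Birc6* (0.21). None of them was called with median-ratio scaling, and all turned slightly negative after correction for GC content and gene length (-0.01, -0.10 and -0.10). With quantile normalization *Xiap* was called (0.25, adjusted p = 0.0427 from limma), and *Birc2* and *Birc6* were not. *Endog*, a mitochondrial nuclease, was lower (-0.35), a call that was lost after the same correction (-0.23) and without either wild-type library. *Apaf1*, the scaffold on which *Casp9* is activated, and *Cycs*, which encodes cytochrome c, were not called (0.20 and 0.14).

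In the death receptor list, 4 of 8 genes were higher and 1 lower, and with median-ratio scaling 1 and 1. *Cflar*, which encodes the inhibitor FLIP that competes with caspase-8 for its adaptor, had 16.3 and 15.95 FPKM in *rd7* and 8.17 and 7.98 FPKM in wild-type libraries (log2 fold change 0.99, adjusted p = 0.000407 from limma). *Ngfr*, the p75 neurotrophin receptor, was higher by 0.50, and *Ripk1* and *Tnfrsf21* by 0.33 and 0.32, and these 3 calls were lost with median-ratio scaling. After correction for GC content and gene length *Ngfr* was still called (0.50, adjusted p = 0.0427 from limma), and *Ripk1* and *Tnfrsf21* were not (0.05 and 0.20). *Tnfrsf10b*, the TRAIL receptor, was lower (log2 fold change -0.42, 4.26 and 3.82 against 5.17 and 5.68 FPKM) and was not called without either wild-type library. *Fadd*, the adaptor of *Casp8*, was not called (0.05).

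Around *Casp1*, 2 of 4 tested genes of the inflammasome list were lower and 0 higher. *Aim2*, a sensor of cytosolic DNA, had 1.71 and 1.64 FPKM in *rd7* and 2.29 and 2.54 FPKM in wild-type libraries (log2 fold change -0.50), and *Nlrp1a* had 2.70 and 2.58 against 3.87 and 3.61 FPKM (-0.49). Both stayed called under each scaling of the libraries and neither was called without wild-type replicate 1 or replicate 2. The *Casp1* substrate *Il18* was not called (0.08), and *Il1b* did not exceed 0.0391 FPKM in any library. Of the microglia markers 3 of 8 were higher, beside 37.6% of all genes. That count depended on which library was left out, and the part of microglia was not tested.

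Of 7 genes of caspase substrates, 1 was higher (*Pak2*, 0.24, and -0.11 after correction for GC content and gene length) and 0 lower, and with median-ratio scaling 0 were higher and 1 lower. *Parp1* and the nuclease pair *Dffa* and *Dffb* were not called (0.09, 0.17 and -0.14). In the p53 list 6 of 9 genes were higher and 1 lower, where 37.6% of all genes were higher and 8.80% lower. The count was 3 higher and 1 lower with either median-ratio or quantile scaling, 2 and 2 after correction for GC content and gene length, 2 and 1 without wild-type replicate 1 and 3 and 0 without wild-type replicate 2. *Cdkn1a*, the cell cycle inhibitor p21, had 9.04 and 7.13 FPKM in *rd7* and 3.91 and 4.49 FPKM in wild-type libraries (log2 fold change 0.92, adjusted p = 0.00397 from limma). *Mdm4* and *Ccng1* were higher by 0.50 and 0.40, and both calls were lost after correction for GC content and gene length (0.18 and 0.05, adjusted p = 0.103 and 0.547 from limma). *Gadd45a*, another p53 target, was lower (25.3 and 22.1 against 32.1 and 33.9 FPKM, log2 fold change -0.48) but was not called without wild-type replicate 2 (adjusted p = 0.0532 from limma). *Bax*, itself a p53 target, and *Trp53* (0.16) were not called.

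Of the pathway genes under 1 FPKM, 23 could be fitted without a filter. Of the 23, 4 were called higher and 0 lower, beside 4.08% and 2.30% of all loci under 1 FPKM. The 4 called genes were *Hrk*, *Pmaip1*, *Bcl2a1a* and *Ripk3*, singled out after their values were seen. *Hrk*, a BH3-only gene of neurons, had 1.02 and 0.764 FPKM in *rd7* and 0.290 and 0.330 FPKM in wild-type libraries, from an estimated 192 and 143 against 55 and 63 reads (log2 fold change 1.26, adjusted p = 0.0206 from limma without a filter). *Pmaip1*, which encodes the BH3-only protein NOXA, had 0.310 and 0.387 against 0.152 and 0.188 FPKM. The other two rest on very few reads, at most 6 in any library, and *Bcl2a1a* has near-identical copies among which reads could be split.

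**Figure D3:**
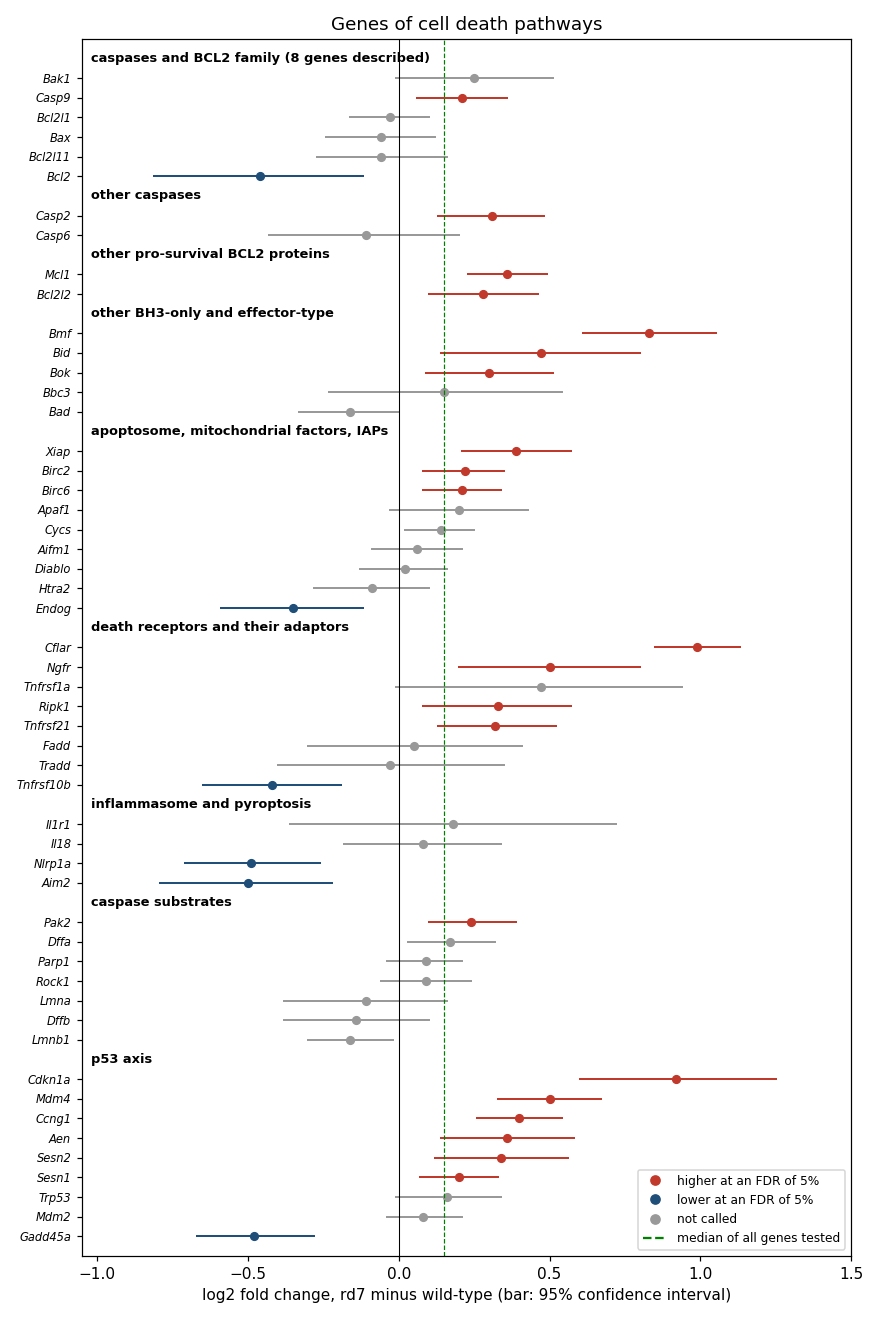
Log2 fold change of *rd7* against wild-type retinas (horizontal axis) with its 95% confidence interval from limma, for the 6 tested members and further tested genes of 8 pathway lists (vertical axis), coloured by call at an FDR of 5%, with the median of all genes tested (0.15) as a dashed line. *Cflar*, *Bmf* and *Cdkn1a* stand apart near 0.8 to 1.0, whereas the intervals of *Bax*, *Bcl2l1* and *Bcl2l11* cover 0.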

How the data were processed

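The deposited FPKM per gene and library, each with a status, came from Cufflinks 1.3.0 after the authors had aligned 50 bp single-end reads by TopHat 1.4.1 (build mm9). Their Cuffdiff table (pooled values, fold changes, p-values) was not used. Of 22095 loci, 262 without a successful status in all libraries were left out, and 12655 with a mean of at least 1 FPKM were tested on log2(FPKM + 0.1) by limma 3.58.1 (R 4.3.3). Its moderated test was two-sided, let the prior variance follow the mean level, and was adjusted by Benjamini-Hochberg. Libraries are pools of animals, and p-values measure the spread between pools. A fold change on this scale understates that of low genes. The fit was also run on simulated data drawn from its own estimates of means and spread, with no general shift between genotypes. Those data lack the median log2 fold change of 0.15 seen here, so the run does not cover a shift of that kind. Reads were estimated from the lowest FPKM times exonic kb of genes with 1 transcript, keeping those from 0.02 to 0.036. These bounds were picked by eye and hold the estimated depths close together. Estimates of reads use the annotated exonic length, which may not be the length behind the FPKM. Counting intervals cover counting error only. GC content and length, known for 96.9% of tested loci, were removed by natural splines in an alternative. Loci have their first base counted as 1. The members and lists were chosen with earlier results of these data known. Named genes were all members, some of the called genes of each list (values for up to 4) and genes at 0 in all libraries. The 3 genes nearest to the member with the largest called change were named too. Some genes that were not called, such as *Casp6*, *Apaf1* and *Trp53*, were named as well, outside that rule. Reads were not stated to be stranded. Some listed genes are counted but not reported singly here.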

Additional observations from a re-analysis of the deposited data

How the results depend on the processing

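Members called higher, 1 as reported (*Casp9*), were 0 without a filter on low FPKM, with median-ratio scaling, with quantile normalization, with a replicate block, after correction for GC content and gene length and at an FDR of 1%, and 0 to 2 with a library left out. Members called lower, 1 as reported (*Bcl2*), were 0 without a filter, with the filter raised to a mean FPKM of 5 (which *Bcl2* does not reach), with a replicate block and at an FDR of 1%, 2 with median-ratio scaling and after correction for GC content and gene length, and 0 to 1 with a library left out. Other pathway genes called higher, 21 as reported, were 7 with median-ratio scaling, 8 with quantile normalization, 7 with the GC and length correction, 8 at an FDR of 1% and 5 to 24 with a library left out (5 without wild-type replicate 1 and 7 without wild-type replicate 2). Those called lower, 5 as reported, were 8, 8, 10 and 2 in the same order, 2 with the filter raised to 5, and 0 to 7 with a library left out (1 without wild-type replicate 1 and 0 without wild-type replicate 2). A genotype left with 1 library was assumed to vary like the other. With the replicate block these 2 counts were 19 and 5. Over the 12655 genes tested, the shift of replicate 1 away from its genotype mean had r = -0.0265 between *rd7* and wild-type. A value over all genes does not describe single lists. Lens genes summed to 19.4 FPKM in replicate 1 and 43.5 FPKM in replicate 2 of *rd7*. In wild-type they summed to 34.8 and 80.8 FPKM in the same order. Lens genes called lower were 0 as reported and 5 with the replicate block. Whether libraries with the same number were handled together was not tested.

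The sign turned for *Bax*, with 0.04 under the GC and length correction and -0.14 to 0.01 with a library left out, and *Bcl2l1* ranged from -0.07 to 0.00 when libraries were left out, none of these values being called. The cause was not tested for calls that scaling changed. *Casp1* and *Casp8*, under the filter, were fitted only without it. Depth limits *Casp1* to an estimated 8 reads or fewer in a library, or 5 if its lowest value is 1 read.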
